A study of Mus musculus with 12 samples.

Results

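Transcripts of 36 genes that act in mitosis and chromosome segregation were followed in mouse embryonic stem (ES) cells across deletion of Hdac1/2 and withdrawal of leukemia inhibitory factor (LIF). The genes were listed by symbol, from the kinases that start mitosis to the proteins that split the cell. They were found through the gene symbols of the array's annotation. A probe was found for 35 of the 36 genes, and none for Ccnb1. Of their 72 probes, 50 were kept because all 3 arrays of at least one group detected them (p under 0.05), which left 30 genes measured among the 9527 measured in all. Of these, 16 had 1 kept probe and 14 had more, and the brightest kept probe stood for the gene. The cells were E14, a male ES cell line from strain 129/Ola grown without feeder cells. The deleted cells carried the genotype HDAC1-/-; HDAC2-/wt and were taken on day 4, after OHT (4-hydroxytamoxifen, 1 µM for 16 h) had activated a CreER recombinase. The wild type cells were taken on day 0. Each genotype was grown without LIF, which was removed for 4 days so that the cells differentiated spontaneously, and with LIF, which gives 4 groups of 3 Illumina arrays. All 12 arrays carry OHT as their agent, including the day 0 arrays. Deletion and day cannot be told apart, because every deleted array is from day 4 and every wild type array from day 0. One allele of HDAC2 stays wild type in the deleted cells, and the promoter that drives CreER is not given in the sources used here. Nothing in the labels says that replicate arrays stem from different cultures, and p-values therefore measure a spread between arrays that may be technical.

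Mitosis begins when the cyclin-dependent kinase Cdk1, bound to A- and B-type cyclins, is switched on with the help of the phosphatase Cdc25c and the kinase Plk1. Microtubules then attach to kinetochores, protein assemblies on the centromere, while the spindle checkpoint holds back the anaphase-promoting complex (APC/C) until every chromosome is attached. Once the checkpoint is satisfied, Cdc20 activates the APC/C, securin (Pttg1) is degraded, and separase (Espl1) cuts the cohesin rings that hold sister chromatids together. Kinesin motors and the bundling protein Prc1 build the central spindle, along which the cell divides. ES cells cycle fast and spend little time in G1. Many of these genes are transcribed late in the cell cycle through a CHR element near the start site, which is bound by the DREAM complex in resting cells and by complexes of B-Myb (Mybl2) and Foxm1 in dividing cells, often with a CCAAT box bound by NF-Y.

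RefSeq promoters (assembly GRCm38.p6, from 250 bases before to 50 after the transcription start) were found for 30 of the 36 listed genes, 26 of them measured, with 32 promoters in total. A CHR was taken as TTTGAA or TTCGAA on either strand, so that TTCAAA is also a match. It was found in 25 of 32 promoters (78.1%), against 6316 of 32851 promoters of all genes (19.2%). CCAAT on either strand, read as ATTGG on the other, was found in 24 of 32 (75%), against 37.4% of all promoters. Both motifs were found in 22 of 32 (68.8%), against 7.52%. The letters of the 2 motifs can share an end base, and a match describes the letters only. The 4 promoters shown belong to some of the genes called below, Cdc20 and Birc5 for LIF withdrawal and Prc1 and Kif11 for deletion. Capitals mark a CHR or a CCAAT match, and each is written 5′ to 3′ on the gene's strand. Cdc20 (chr4:118437294-118437593, minus strand) holds a CHR and 2 CCAAT boxes. Birc5 (chr11:117848987-117849286, plus strand) holds neither motif in this window. Prc1 (chr7:80294201-80294500, plus strand) and Kif11 (chr19:37376132-37376431, plus strand) hold 1 of each.
Cdc20: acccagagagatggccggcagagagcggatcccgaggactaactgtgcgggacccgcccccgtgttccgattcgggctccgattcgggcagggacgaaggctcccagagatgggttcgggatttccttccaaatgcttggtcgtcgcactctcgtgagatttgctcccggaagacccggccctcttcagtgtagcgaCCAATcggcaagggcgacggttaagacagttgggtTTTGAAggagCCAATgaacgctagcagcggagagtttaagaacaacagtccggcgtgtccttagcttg
Birc5: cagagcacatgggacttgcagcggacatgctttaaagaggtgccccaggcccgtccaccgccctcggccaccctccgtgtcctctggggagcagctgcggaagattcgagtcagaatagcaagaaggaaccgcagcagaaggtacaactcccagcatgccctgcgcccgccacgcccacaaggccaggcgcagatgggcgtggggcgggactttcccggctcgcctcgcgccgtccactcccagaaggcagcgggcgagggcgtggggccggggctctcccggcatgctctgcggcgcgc
Prc1: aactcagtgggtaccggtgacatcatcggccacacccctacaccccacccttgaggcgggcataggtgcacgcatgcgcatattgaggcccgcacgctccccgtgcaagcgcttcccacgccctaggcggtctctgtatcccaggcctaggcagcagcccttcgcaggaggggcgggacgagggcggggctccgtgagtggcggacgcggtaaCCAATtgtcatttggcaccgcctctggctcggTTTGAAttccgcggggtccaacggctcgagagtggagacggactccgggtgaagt
Kif11: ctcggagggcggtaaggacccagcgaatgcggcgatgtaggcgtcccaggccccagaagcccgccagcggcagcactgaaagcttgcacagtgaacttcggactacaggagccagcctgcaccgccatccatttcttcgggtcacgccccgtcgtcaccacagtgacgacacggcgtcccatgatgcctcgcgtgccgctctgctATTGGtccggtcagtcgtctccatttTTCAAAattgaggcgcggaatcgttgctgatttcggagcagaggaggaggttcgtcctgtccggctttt
The first base of the CHR lies at -18 in Cdc20, at -19 in Kif11 and at -5 in Prc1, counted from the transcription start. Prc1 has a further RefSeq promoter, not shown, in which the same CHR lies at -30. The promoter of Kif2c, also called for deletion and not shown, holds a CHR at -103 and no CCAAT match. Those of Plk1 and Cdca8, called for LIF withdrawal and not shown, hold both motifs.

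The names of the arrays limit part of what follows. Values were taken from the authors' processed table, named by sample. In the authors' second table, of non-normalized signals, each of the 12 columns had exactly the rank order of a processed column of another sample, while the highest rank correlation with any further column was 0.836. The 2 namings gave 12 of 12 columns the same genotype and 0 of 12 the same culture or replicate number. A deletion effect averaged over both cultures is therefore the same under either naming. The direction of every LIF effect, and the culture that a single deletion effect belongs to, rest on the naming of the processed table. The replicate numbers, and every fit with the replicate number as a block, rest on that naming too. Raw median signals were 91.2 to 167 on deleted arrays and 97.5 to 216 on wild type arrays. Normalized arrays correlated at 0.974 to 0.994 within groups and 0.929 to 0.980 between groups.

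All 10 ES cell markers were detected on all 12 arrays. Of these 10, 7 fell and 0 rose without LIF in deleted cells, and 5 fell and 0 rose in wild type cells. All 10 differences were negative without LIF in both genotypes, with medians of -0.87 in deleted and -0.82 in wild type cells. These directions hold under the naming of the processed table and turn round under the column names of the non-normalized table. Which naming is right was not tested. Of the other cell types, endoderm marker sums separated by genotype and by culture. Trophoblast and fibroblast sums overlapped between genotypes without LIF, and trophoblast sums also overlapped between cultures in deleted cells. The summed intensity of the 5 kept endoderm markers, of 10 listed, was 3302 to 3403 in deleted and 2453 to 2823 in wild type cells without LIF. With LIF it was 2307 to 2684 in deleted and 1574 to 1826 in wild type cells, while Gata4, Afp, Ttr and Foxa2 were detected on no array. The 5 kept trophoblast markers, of 8, summed to 5768 to 10721 in deleted and 5322 to 6276 in wild type cells without LIF, and to 5547 to 7440 in deleted and 3877 to 5271 in wild type cells with LIF. The 6 kept fibroblast markers, of 12, summed to 2820 to 4478 in deleted and 2842 to 5264 in wild type cells without LIF, and to 2334 to 2680 in deleted and 1920 to 2281 in wild type cells with LIF. Col1a2, Lum and S100a4 were detected on no array, and 0 of 5 blood and macrophage markers were kept. The part of these cells in the results was not tested. In RNA from whole cultures, fewer cells of a type and less RNA per cell cannot be told apart. The single kept Hdac2 probe differed by -0.19 ± 0.08 (log2 difference ± SE) between deleted and wild type cells (limma, adjusted p = 0.121), and no Hdac1 probe was found. Where that probe lies relative to the deleted part is not given in the sources used here, so it checks neither the deletion nor the labels.

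Deletion left most mitotic transcripts within a narrow range of their wild type level. Over both cultures 3 of the 30 genes passed the test. Prc1, which bundles the antiparallel microtubules of the central spindle, rose 1.22-fold, while Kif11, the kinesin that pushes spindle poles apart, and Kif2c, a kinesin that depolymerizes microtubule ends at the centromere, fell by 0.35 and 0.28 on the log2 scale. The 3 called genes make up 10% of those measured, against 24.4% of all 9527 genes in the same comparison. The 1 that rose and the 2 that fell stand against 14.1% and 10.3% of all genes called in those directions. Log2 differences of the 30 genes ran from -0.35 to 0.29, with a median of 0.01, the same as the median of all genes. The 95% interval of the difference lay within 1.5-fold of no change for 30 of 30 genes, against 83.4% of all genes. Differences of genes near background, such as Ube2c, Ttk, Nuf2, Cenpf and Pttg1, are compressed by the offset, and these counts do not allow for that. Calls are from limma's moderated test on log2 normalized intensities with Benjamini-Hochberg adjustment over all 9527 genes at 0.05. With the replicate number as a block, 3482 of all genes were called in place of 2320, and 3 of the 30 genes.

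**Figure D1:**
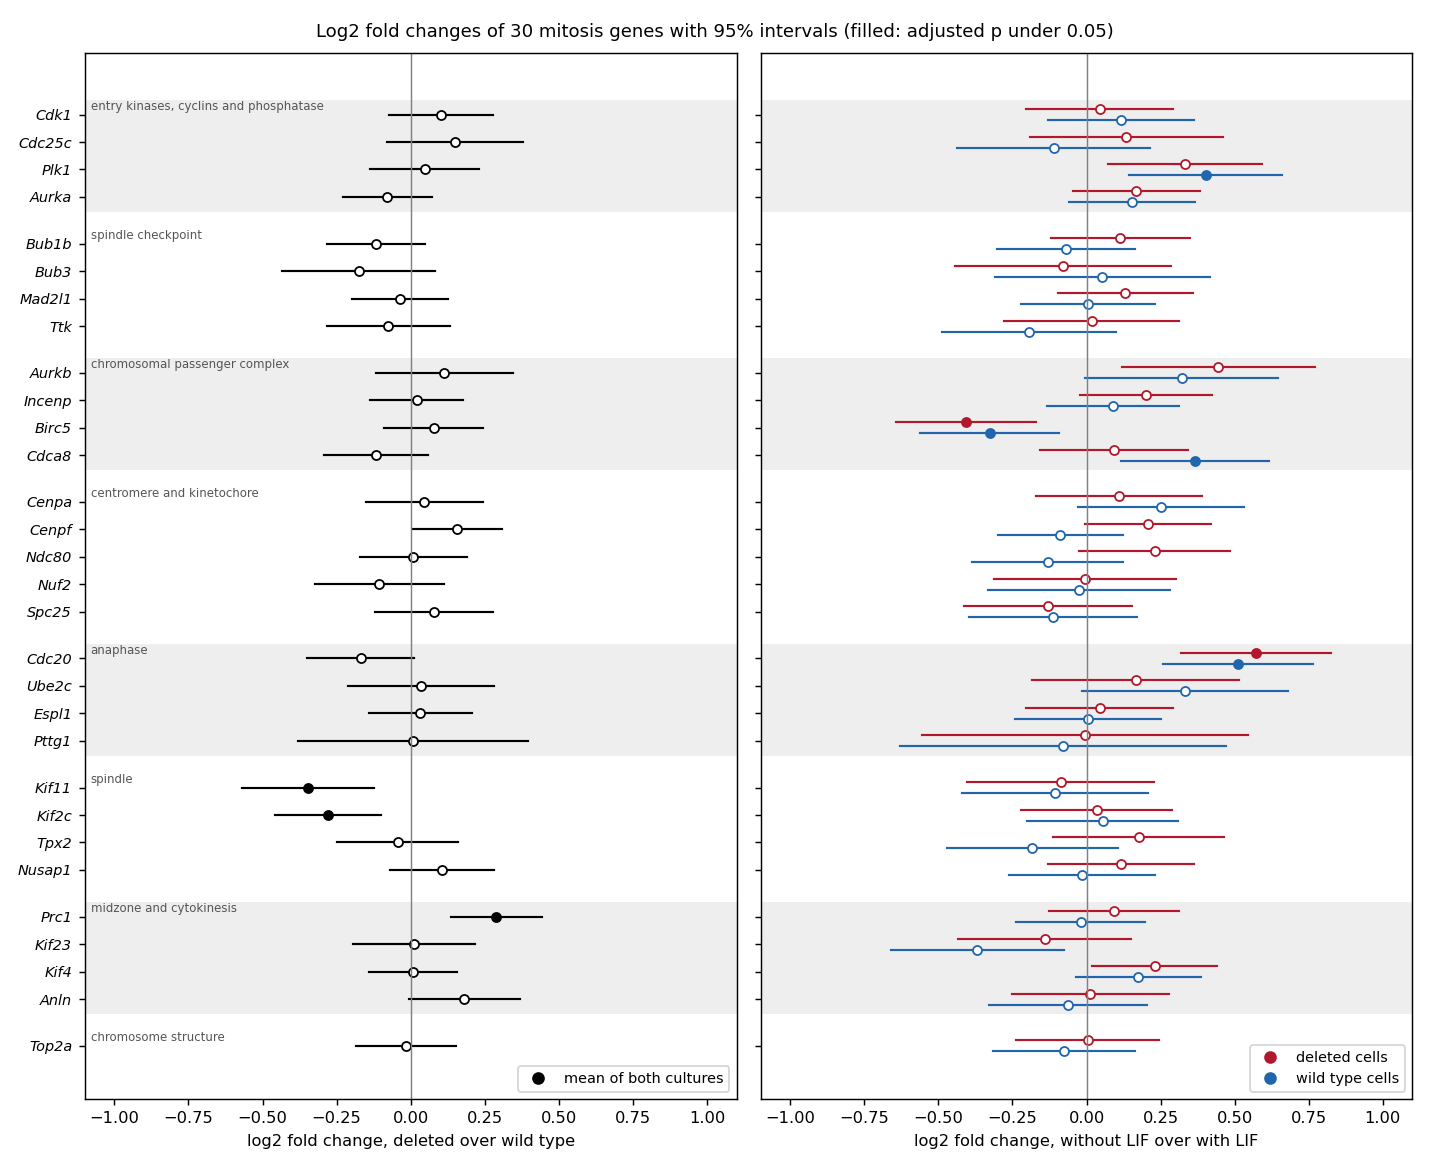
Log2 differences of the 30 measured genes (x axis) by role (y axis), for deleted minus wild type averaged over both cultures and for without LIF minus with LIF in each genotype. Points are limma estimates, bars are 95% intervals, and filled points passed an adjusted p of 0.05. Prc1, Kif11 and Kif2c are filled for deletion, and Cdc20 and Birc5 are filled for LIF withdrawal in both genotypes.

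Prc1 read 12.52, 12.45 and 12.49 log2 units in deleted cells without LIF, against 12.30, 12.00 and 12.13 in wild type cells without LIF. With LIF it read 12.44, 12.37 and 12.37 in deleted and 12.24, 12.15 and 12.10 in wild type cells. All 6 deleted arrays lay above all 6 wild type arrays, a separation that 3.64% of all genes showed in that direction and 6.13% in either. The difference over both cultures was 0.29 ± 0.07 (SE, 6 arrays per genotype, limma adjusted p = 0.0108), with the deleted array higher in 6 of 6 pairs of the same number and culture. It stayed called with any one of the 12 arrays left out. Within single cultures Prc1 differed by 0.35 ± 0.10 without LIF (adjusted p = 0.0451) and by 0.23 with LIF (adjusted p = 0.165). The call without LIF was lost with any one of 9 arrays left out (adjusted p 0.0563 to 0.176): wild type with LIF 2, wild type without LIF 2 and 3, all 3 deleted with LIF and all 3 deleted without LIF.

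Kif11 read 8.22, 8.70 and 8.69 in deleted cells without LIF and 8.69, 8.89 and 9.04 in wild type cells without LIF. With LIF it read 8.43, 8.75 and 8.68 in deleted and 8.89, 9.10 and 8.94 in wild type cells. The deleted array was lower in 6 of 6 pairs, and the groups overlapped without LIF but not with LIF. The difference over both cultures was -0.35 ± 0.10 (SE, 6 arrays per genotype, limma adjusted p = 0.0268). It was lost with any one of 5 arrays left out (adjusted p 0.0521 to 0.0735): replicate 1 of either deleted group, replicates 2 and 3 of wild type without LIF, and replicate 2 of wild type with LIF. Replicate 1 read lowest in every group, wild type as well as deleted. With the replicate number as a block, the difference over both cultures had a limma adjusted p of 0.00195.

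Kif2c read 10.11, 10.02 and 10.21 in deleted cells without LIF, against 10.47, 10.33 and 10.41 in wild type cells without LIF. With LIF it read 10.05, 10.04 and 10.14 in deleted and 10.54, 10.40 and 10.10 in wild type cells. The groups were separate without LIF, and with LIF the lowest wild type array lay inside the deleted range. The difference over both cultures was -0.28 ± 0.08 (SE, 6 arrays per genotype, limma adjusted p = 0.0272), with the deleted array lower in 5 of 6 pairs. It was lost with any one of 6 arrays left out (adjusted p 0.0512 to 0.0602): wild type with LIF 1 and 2, wild type without LIF 3, deleted with LIF 1 and 2 and deleted without LIF 2. Without a detection filter, which tests more genes, the adjusted p was 0.0667.

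**Figure D2:**
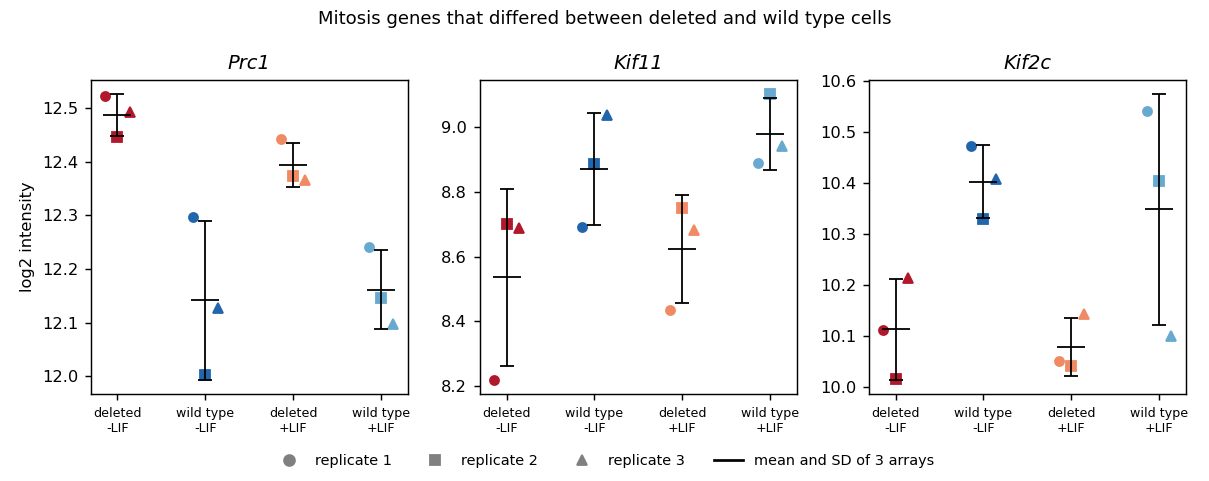
Log2 normalized intensity (y axis) of Prc1, Kif11 and Kif2c on each of 12 arrays, by group from deleted without LIF to wild type with LIF (x axis). Points are arrays, and lines and bars are the group mean and SD of 3 arrays. For Prc1 all 6 deleted arrays sit above all 6 wild type arrays.

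The remaining 27 genes did not pass over both cultures. None of the mitotic entry genes passed, with differences of 0.10 for Cdk1, 0.15 for Cdc25c, 0.05 for Plk1 and -0.08 for Aurka, the kinase of centrosome maturation. The 4 checkpoint genes lay between -0.18 (Bub3) and -0.04 (Mad2l1), both of which belong to or feed the complex that inhibits Cdc20, with Bub1b at -0.12 and Ttk, the kinase that recruits checkpoint proteins to kinetochores, at -0.08. In the chromosomal passenger complex, which corrects faulty attachments, the kinase Aurkb differed by 0.11, its scaffold Incenp by 0.02, survivin (Birc5) by 0.08 and borealin (Cdca8) by -0.12. At the centromere and kinetochore the centromeric histone Cenpa differed by 0.05, and the Ndc80 complex subunits Ndc80, Nuf2 and Spc25 by 0.01, -0.11 and 0.08. Cenpf, a large kinetochore and spindle protein, differed by 0.16 (limma adjusted p = 0.119) and was the only one of the 27 with an unadjusted p under 0.05 (0.0415). Separase (Espl1) and securin (Pttg1) differed by 0.03 and 0.01, and Ube2c, the ubiquitin-conjugating enzyme of the APC/C, by 0.03. The spindle assembly factors Tpx2 and Nusap1 differed by -0.04 and 0.11, and the central spindle motors Kif23 and Kif4 by 0.01 each. Top2a, which untangles sister DNA, differed by -0.02, with a 95% interval of -0.19 to 0.15.

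Kept probes of 1 gene disagreed in the sign of the deletion difference for 5 of these genes, and none of them passed. For Cenpa the brightest probe gave 0.05 and the other -0.16. The brightest ran from 12.39 to 12.89 on the 6 deleted and from 12.40 to 12.84 on the 6 wild type arrays, and the other from 6.52 to 6.97 and from 6.77 to 7.26. For Mad2l1 the probes gave -0.04 and 0.14. The brightest ran from 10.43 to 10.80 on deleted and from 10.60 to 10.80 on wild type arrays, and the other from 9.57 to 10.03 and from 9.39 to 9.90. The genotypes overlapped on both probes of both genes. Nusap1 gave 0.11, -0.14 and 0.06 on 3 probes, the brightest of which ran from 10.75 to 11.08 on deleted and from 10.70 to 10.91 on wild type arrays. Top2a gave -0.02 and 0.07 on 2 probes, the brightest of which ran from 11.22 to 11.38 on deleted and from 11.08 to 11.47 on wild type arrays. Kif23 gave 0.01, 0.15 and -0.05 on 3 probes. No direction can be given for these 5 genes.

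Cdc20, the activator of the APC/C, was lower on the deleted array in 6 of 6 pairs, at -0.17 on average, and did not pass (adjusted p = 0.158). Taking the mean of its 4 kept probes gave -0.20 with an adjusted p of 0.0403. Anln, the actin-binding scaffold of the cleavage furrow, differed by 0.18 (adjusted p = 0.15), and leaving out wild type with LIF replicate 1 gave 0.24 with an adjusted p of 0.0491.

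In single cultures deletion called fewer of these genes. Without LIF 1 of the 30 genes rose, Prc1, and 0 fell, against 10.5% of all genes called (5.92% that rose and 4.57% that fell). The median difference was 0.04, and 0.00 over all genes. Cenpf read 7.16, 7.19 and 7.17 in deleted cells without LIF and 6.94, 6.84 and 6.83 in wild type cells without LIF. Its groups were separate, and the difference of 0.31 did not pass (limma adjusted p = 0.065). At a normexp offset of 16 Cenpf passed without LIF, at 0.41 (limma adjusted p = 0.047), and Prc1 did not (0.0668). A second Cenpf probe gave 0.27. With LIF 0 of the 30 genes passed, against 10.0% of all genes. At an unadjusted p under 0.05 there were 3 of the 30 genes, Prc1, Kif11 and Kif2c, against 26.0% of all genes. The neqc-type processing of the non-normalized table called 1, Cenpf, in columns named with LIF whose rank order is that of the processed arrays without LIF. The median difference was -0.03, and 0.02 over all genes. Groups were separate for 3 of the 30 genes in each culture, against 29.5% of all genes without LIF and 31.5% with LIF. With the replicate number as a block, 2084 of all genes were called without LIF in place of 999, and 3 of the 30, Prc1 (adjusted p = 0.0164), Kif11 at -0.34 (0.0306) and Cenpf at 0.31 (0.035). With LIF the block called 2026 in place of 955, and 1 of the 30, Kif11 at -0.36 (adjusted p = 0.0234).

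**Figure D3:**
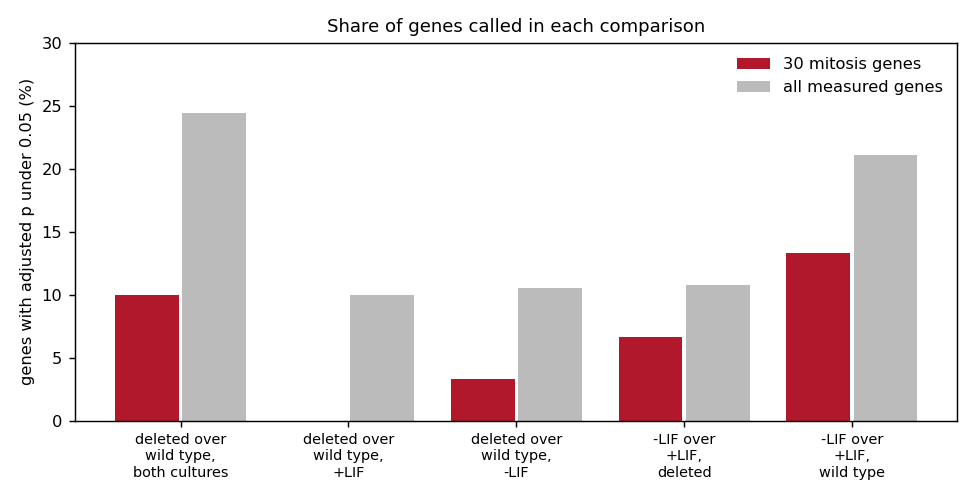
Percent of genes called (y axis) in each comparison (x axis), for the 30 mitosis genes and for all 9527 measured genes. The share of the mitosis genes is 10% and the share of all genes 24.4% for deletion averaged over both cultures.

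Withdrawal of LIF changed Cdc20 and Birc5 in both genotypes, though the Birc5 call in wild type cells depended on the processing. Cdc20 rose 1.49-fold in deleted and 1.43-fold in wild type cells without LIF, relative to cells with LIF. Birc5, or survivin, which brings the chromosomal passenger complex to centromeres, fell by 0.41 and 0.33 on the log2 scale. Plk1 and Cdca8 also rose in wild type cells. In deleted cells 1 gene rose and 1 fell, which is 6.67% of the 30, against 10.8% of all genes (5.03% that rose and 5.75% that fell). In wild type cells 3 rose and 1 fell, which is 13.3%, against 21.1% of all genes (11.1% that rose and 10.0% that fell). The median difference of the 30 genes was 0.10 in deleted and -0.02 in wild type cells, against -0.02 and 0.00 over all genes. All these directions hold under the naming of the processed table and turn round under the column names of the non-normalized table.

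Cdc20 read 12.02, 11.88 and 11.81 in deleted cells without LIF, against 11.26, 11.34 and 11.40 in deleted cells with LIF. Wild type cells read 12.07, 12.00 and 12.06 without LIF and 11.38, 11.43 and 11.79 with LIF. Every array without LIF lay above every array with LIF of either genotype. The difference was 0.57 ± 0.12 in deleted cells (SE, 3 arrays per group, limma adjusted p = 0.00666) and 0.51 ± 0.12 in wild type cells (adjusted p = 0.0074). Both calls stayed with any one of the 12 arrays left out. Of its 3 other kept probes, the first 2 gave 0.52 and 0.56 in deleted and 0.56 and 0.63 in wild type cells, and both passed in a fit of all 15999 kept probes, which called 8.75% of probes in deleted and 18.0% in wild type cells. The fourth probe gave 0.32 in deleted cells (adjusted p over probes 0.087) and 0.23 in wild type cells (0.16), and did not pass.

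Birc5 read 10.94, 10.74 and 10.69 in deleted cells without LIF, against 11.15, 11.24 and 11.19 in deleted cells with LIF. Wild type cells read 10.88, 10.68 and 10.68 without LIF and 11.17, 11.12 and 10.94 with LIF. The arrays of the 2 cultures did not overlap within either genotype. The difference was -0.41 ± 0.11 in deleted cells (SE, 3 arrays per group, limma adjusted p = 0.0292) and -0.33 ± 0.11 in wild type cells (adjusted p = 0.0486). A second probe gave -0.35 in deleted and -0.33 in wild type cells, and the other probe gave -0.46 and -0.17, the last of which did not pass (adjusted p over probes 0.30). In that fit the brightest probe passed in deleted (0.035) but not in wild type cells (0.056). The wild type call was also lost at a normexp offset of 16 (limma adjusted p = 0.0676), without a detection filter (0.127) and with only the groups compared (0.113). Without a detection filter the call in deleted cells was lost too (0.0811). The call in deleted cells was lost with any one of 5 arrays left out, deleted with LIF 1, 2 and 3 and deleted without LIF 2 and 3 (adjusted p 0.0702 to 0.105). The call in wild type cells was lost with any one of 9 arrays left out (adjusted p 0.0542 to 0.149), and stayed only without wild type with LIF 3, wild type without LIF 1 or deleted without LIF 1.

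**Figure D4:**
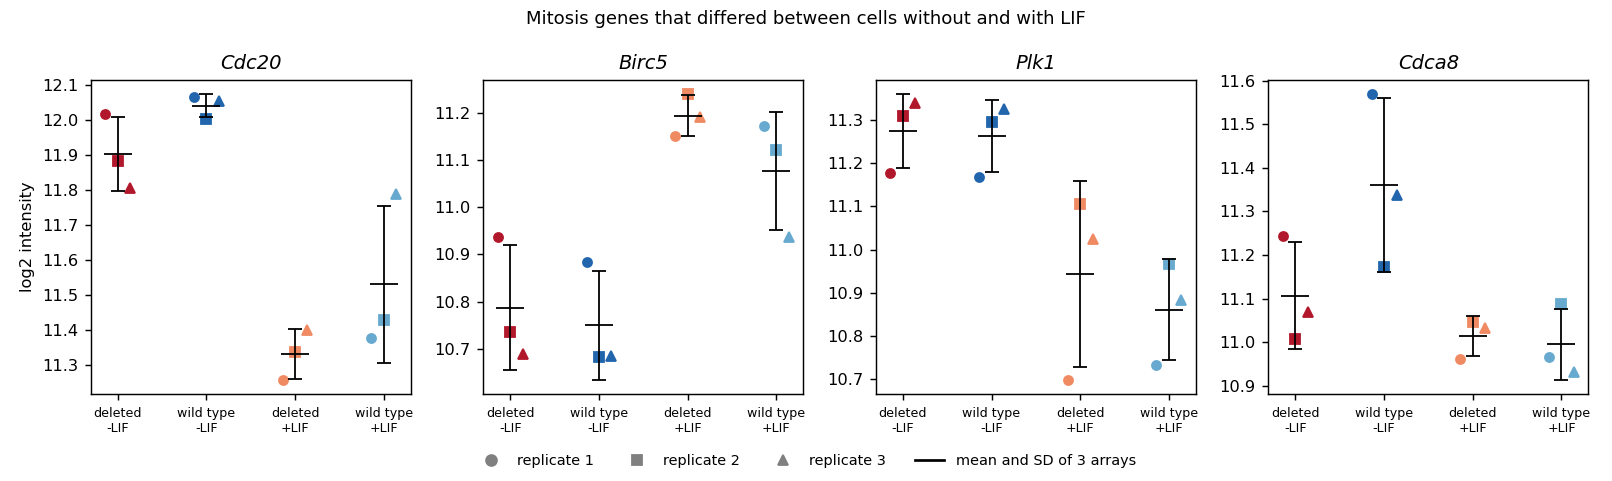
Log2 normalized intensity (y axis) of Cdc20, Birc5, Plk1 and Cdca8 on each of 12 arrays, by group from deleted without LIF to wild type with LIF (x axis). Points are arrays, and lines and bars are the group mean and SD of 3 arrays. Cdc20 is higher and Birc5 lower without LIF in both genotypes, under the naming of the processed table.

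Plk1, the kinase that drives centrosome maturation and mitotic exit, read 11.17, 11.30 and 11.33 in wild type cells without LIF, against 10.73, 10.97 and 10.88 in wild type cells with LIF. In deleted cells it read 11.18, 11.31 and 11.34 without LIF and 10.70, 11.11 and 11.03 with LIF. The arrays without LIF lay above those with LIF in each genotype. The difference was 0.40 ± 0.12 in wild type cells (SE, 3 arrays per group, limma adjusted p = 0.0301) and 0.33 in deleted cells (adjusted p = 0.102), and the test of that difference between genotypes gave -0.07 (adjusted p = 0.971). The wild type call was lost without wild type with LIF 1 or 3 or wild type without LIF 2 or 3 (adjusted p 0.0572 to 0.101).

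Cdca8, or borealin, read 11.57, 11.17 and 11.34 in wild type cells without LIF, against 10.97, 11.09 and 10.93 in wild type cells with LIF. In deleted cells it read 11.24, 11.01 and 11.07 without LIF and 10.96, 11.05 and 11.03 with LIF. The groups were separate in wild type and overlapped in deleted cells. The difference was 0.36 ± 0.12 in wild type cells (SE, 3 arrays per group, limma adjusted p = 0.0393) and 0.09 in deleted cells (adjusted p = 0.683), and the test between genotypes gave -0.27 (adjusted p = 0.786). Its other probe gave 0.20 in wild type cells (adjusted p over probes 0.22). The call was lost with any one of 8 arrays left out (adjusted p 0.0515 to 0.148), and stayed without wild type without LIF 2 or any one of the 3 deleted arrays without LIF.

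**Figure D5:**
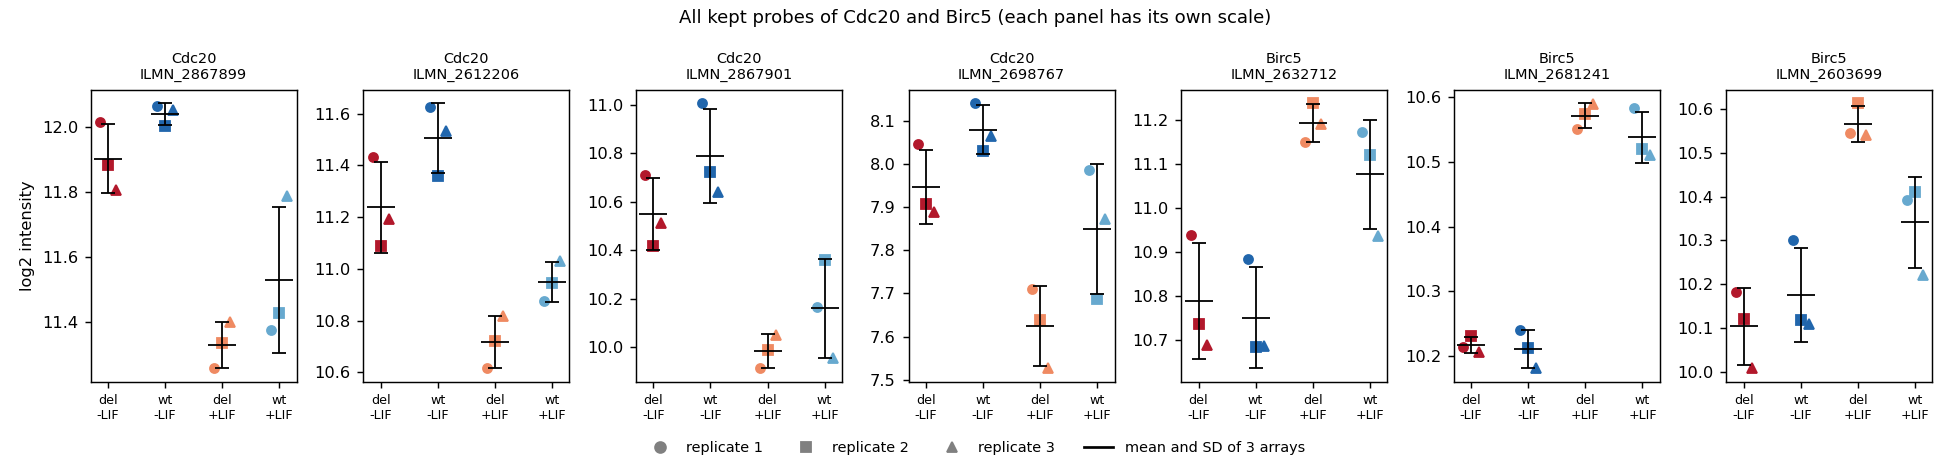
Log2 normalized intensity (y axis, a scale of its own in each panel) of the 4 kept probes of Cdc20 and the 3 of Birc5 on each of 12 arrays, by group from deleted without LIF to wild type with LIF (x axis). Points are arrays, and lines and bars are the group mean and SD of 3 arrays. Cdc20 means are higher and Birc5 means lower without LIF in both genotypes for all 7 probes, under the naming of the processed table.

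Aurkb, the kinase of the passenger complex, read 9.71, 10.17 and 9.83 in deleted cells without LIF and 9.41, 9.29 and 9.67 in deleted cells with LIF. The groups were separate, and the difference of 0.44 did not pass (limma adjusted p = 0.0796), nor did that of 0.32 in wild type cells (0.155). With the replicate number as a block, 1849 of all genes were called in deleted cells in place of 1027. That fit called 4 of the 30 genes, adding Aurkb (adjusted p = 0.043) and Plk1 (0.0228). Incenp, the scaffold of the same complex, differed by 0.20 in deleted and 0.09 in wild type cells.

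Kif23, the motor of the centralspindlin complex, read 9.42, 9.64 and 9.69 in wild type cells without LIF and 10.01, 10.02 and 9.82 in wild type cells with LIF. The groups were separate, and the difference of -0.37 did not pass (limma adjusted p = 0.0715) until deleted without LIF 1 was left out (0.0498). Its 2 other kept probes gave -0.14 and 0.18, so the probes disagree in sign. Kept probes also disagreed for Kif4, Kif23 and Anln in deleted cells and for Bub1b, Mad2l1, Nusap1 and Top2a in wild type cells, and none of these passed. Among the other central spindle genes, the chromokinesin Kif4 differed by 0.23 in deleted (-0.04 and 0.09 on its other kept probes) and 0.17 in wild type cells, and Prc1 by 0.09 and -0.02. The 4 checkpoint genes differed by -0.20 to 0.13 over both genotypes, and none passed. At the centromere, Cenpa differed by 0.11 in deleted and 0.25 in wild type cells, and Cenpf by 0.21 and -0.09. Ube2c differed by 0.17 in deleted and 0.33 in wild type cells (adjusted p = 0.169), and was detected on 8 of 12 arrays.

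Groups with and without LIF were separate for 11 of the 30 genes in deleted cells, 10 higher and 1 lower without LIF, against 31.3% of all genes (13.8% higher and 17.6% lower). In wild type cells they were separate for 10, 7 higher and 3 lower, against 35.0% of all genes (18.1% higher and 16.9% lower). The 95% interval lay within 1.5-fold of no change for 26 of 30 genes in deleted and 23 of 30 in wild type cells, against 70.6% and 62% of all genes. The 2 LIF comparisons share no array, and the 4 comparisons of single groups share arrays with each other.

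The LIF response did not pass a test of difference between the genotypes for any of the 30 genes. The interaction called 0 of the 30, against 5 of 9527 genes (0.0525%). At an unadjusted p under 0.05 there was 1 of the 30, against 7.58% of all genes. It was Ndc80, the microtubule-binding subunit of the outer kinetochore, at 0.36 with a 95% interval of 0.00 to 0.72 (limma adjusted p = 0.654). Its LIF difference was 0.23 in deleted and -0.13 in wild type cells. For Cdc20 and Birc5 the interaction was 0.06 (adjusted p = 0.971) and -0.08 (0.965). With the replicate number as a block 13 genes were called, and 0 of the 30.

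Across arrays the 30 genes correlated weakly with each other. The median pairwise correlation of their deviations from the group means over 12 arrays was 0.08, against 0.00 for all genes. These correlations share arrays and normalization and are given as a description. Securin (Pttg1) was set apart by replicate rather than by group. It read 7.31 to 7.62 on replicate 1 of the 4 groups and 6.65 to 6.87 on the 8 other arrays. This holds under the naming of the processed table. Under the other names those arrays are replicate 3 with LIF and replicate 2 without LIF. The 5 listed genes with probes that were not kept were Ccna2, detected on 5 of 12 arrays, Bub1 on at most 2, the kinetochore motor Cenpe on 1, and Ccnb2 and Kif20a on 0. Nothing can be said of the mitotic cyclins from these arrays. Of the measured genes, 27 of 30 were detected on all 12 arrays, and Ttk and Nuf2 on 10.

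A wider list of 97 further measured mitosis genes, chosen by function, gave the setting. Deletion averaged over both cultures called 2 that rose and 7 that fell, against the 24.4% of all genes called, with a median difference of -0.01. Mybl2, or B-Myb, rose by 0.45 ± 0.08 (SE, 6 arrays per genotype, limma adjusted p = 0.00171). The other that rose was Mis18a (0.23), which licenses centromeres for Cenpa and was named after its value was seen. Among those that fell were the centromere protein Cenpm (-0.40), the cohesin subunit Stag2 (-0.39), Ska2 of the kinetochore Ska complex (-0.39) and sororin (Cdca5, -0.38), which protects cohesin. Their adjusted p was 0.0155 or less. With LIF, 3 of the 97 fell in deleted relative to wild type cells, Cenpm, Cenpt and Ska2, against 10.0% of all genes called. Without LIF, Mybl2 rose and Cdca5, Cenpw, Ska2 and Stag2 fell, against 10.5% of all genes called.

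Without LIF, relative to with LIF, 2 of the 97 rose and 3 fell in deleted cells, against 5.03% and 5.75% of all genes. In wild type cells 5 rose and 8 fell, against 11.1% and 10.0% of all genes. Foxm1, the transcription factor of late cell cycle genes, rose by 0.46 in deleted and 0.50 in wild type cells (limma adjusted p = 0.0493 and 0.0212). Stag2 rose by 0.62 in deleted and 0.65 in wild type cells. Mybl2 fell by 0.42 in deleted and 0.62 in wild type cells, and Cenpm fell by 0.60 and 0.94. Cenpw fell by 0.45 in deleted cells. In wild type cells Cep55, which recruits the abscission machinery, fell by 0.79 and the centromere protein Cenpt by 0.63. These LIF directions rest on the naming of the processed table too, and the interaction called 0 of the 97 (adjusted p of Mybl2 0.853 and of Foxm1 0.984).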

How the data were processed

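RNA from 12 samples was hybridised to Illumina bead arrays and read with GenomeStudio, per the submitters' processing notes. The authors' deposited processed table holds intensities on a linear scale, and their normalization is not given in the sources used here. The authors also deposited non-normalized signal intensities, and the column headers name detection p-values only for that table. Its column names exchange the cultures, but each group of columns matches a whole group of processed arrays of the same genotype. The detection filter over groups is therefore the same under either naming. The deposited processed intensities were background-corrected with normexp at an offset of 50, put on the log2 scale and quantile-normalized. A probe was kept if every array of some group detected it at p under 0.05 (15999 of 45281), and the brightest kept probe stood for each gene (9527 genes). The 4 group means over 12 arrays were fitted with limma 3.58.1 in R 4.3.3, with Benjamini-Hochberg adjustment over all genes at 0.05. The fit was tested on simulated data. The members and lists were chosen with earlier results of these data known. All 36 genes are accounted for, with values per array for those that passed. Where kept probes disagree in sign for deletion, values of each probe are given, with ranges over arrays for some. Of the wider list, at most 5 called genes, those with the largest differences, were to be named per comparison. Mis18a for deletion over both cultures and Foxm1 for LIF withdrawal in wild type cells are named beyond that rule. Deviations of same-numbered arrays from their group means correlated at 0.51, 0.30 and 0.38 for deletion with LIF. For deletion without LIF they correlated at 0.68, 0.51 and 0.27, and for LIF withdrawal in deleted cells at 0.57, 0.34 and 0.38. All of these were positive, and the numbers were taken to pair the samples. Deleted without LIF 3 nevertheless correlated more with a wild type array of another number. For LIF withdrawal in wild type cells they were 0.52, -0.04 and 0.36, and the numbers were not taken to pair the samples there. The main fit used no pairing in any comparison. Genes said not to pass refer to it, and calls of the fit with the replicate number as a block are given beside its calls. The number of arrays limits the precision, with a median SE of 0.13 per gene. No chance test over lists was made.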

Additional observations from a re-analysis of the deposited data

How the results depend on the processing

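Alternatives changed 1 choice at a time, except those from the non-normalized table under its own names, which change the table, the sample names and the processing together. Columns of that table named with LIF match processed arrays without LIF, and the reverse. Its single-culture values therefore stand beside main fit values of other arrays, and its LIF comparisons run in the reverse direction. The deletion difference averaged over both cultures kept its sign for Prc1, Kif11 and Kif2c under all 8 other settings, and Prc1 stayed called in each. Median scaling of the non-normalized table under its own names called 959 of 9527 genes for deletion over both cultures (2320 in the main fit), 257 with LIF (955), 313 without LIF (999), 717 for LIF withdrawal in wild type cells (2010), 362 in deleted cells (1027) and 1 for the interaction (5). It called 1 of the 30 mitosis genes for deletion over both cultures (Kif11 -0.28 with adjusted p = 0.467, Kif2c -0.21 with 0.337) and 0 for deletion without LIF and for LIF withdrawal in wild type and in deleted cells. Of its calls 88.2% were higher for deletion over both cultures (57.9% in the main fit), 91.1% with LIF (66.5%), 92.3% without LIF (56.5%), 68.1% for LIF withdrawal in wild type (52.4%) and 80.9% in deleted cells (46.6%). The neqc-type processing of the same table called 1 of the 30 genes for deletion with LIF (Cenpf 0.53, in columns that match the processed arrays without LIF), 0 without LIF and 1 for LIF withdrawal in either genotype, and 70.1% of its calls for deletion without LIF were higher.

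LIF differences changed sign in that table, whose names exchange the cultures. In wild type cells Plk1 was -0.42 with neqc-type processing and -0.27 with median scaling, Birc5 0.34 and 0.47, Cdca8 -0.38 and -0.23, and Cdc20 -0.53 and -0.40. In deleted cells Birc5 was 0.42 and 0.52, and Cdc20 -0.59 and -0.45. Without a detection filter, which tests more genes, 534 genes were called for deletion with LIF and 595 without LIF, and of the 30 genes 0 for deletion without LIF and 1 for LIF withdrawal in either genotype. Fits of only the groups compared, with fewer arrays, called 541 genes and 0 of the 30 for deletion without LIF and 1 of the 30 for LIF withdrawal in wild type cells. A normexp offset of 16 called 2 of the 30 there, and no normexp called 8 genes for the interaction. The cause was not tested except where named.

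With the replicate number as a block, 3482 genes were called for deletion over both cultures, 2026 with LIF, 2084 without LIF, 3021 for LIF withdrawal in wild type cells, 1849 in deleted cells and 13 for the interaction. Of the 30 genes the block called 1 for deletion with LIF, 3 without LIF and 4 for LIF withdrawal in deleted cells. In wild type cells, where the numbers did not pair the samples, it called 5, adding Kif23 (-0.37, adjusted p = 0.0219). The block ended no call of the 30 genes.

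Leaving out 1 array at a time, 1710 to 2554 genes were called for deletion over both cultures, 350 to 1190 with LIF, 400 to 1172 without LIF, 1350 to 2228 for LIF withdrawal in wild type cells, 568 to 1137 in deleted cells and 2 to 9 for the interaction. Of the 30 genes, 1 to 3, 0 to 0, 0 to 1, 1 to 5, 1 to 2 and 0 to 0 were called. The lowest total for deletion with LIF came without deleted with LIF 1, and that for deletion without LIF came without wild type without LIF 3. Genes near background, such as Ube2c, Ttk, Nuf2, Cenpf and Pttg1, have differences compressed by the offset.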
